A study of Mus musculus with 8 samples.

Results

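The genes described here encode 10 secreted antagonists of Wnt, Bmp and Nodal proteins, out of 18336 genes named by a probe set (the group of short probes that measures a transcript) on either of the platforms used. They are Cer1, Chrd, Nog, Dkk1, Frzb, Sfrp2, Sfrp5, Lefty1, Lefty2 and Dand5. They were taken by name, through the platform annotation of the probe sets, and every probe set that names one of them was kept, which gave 8 probe sets for 7 genes on U74Av2 and 14 probe sets for all 10 genes on MOE430v2. Lefty2, Dand5 and Sfrp5 were measured on MOE430v2 and not on U74Av2.

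Signal was measured in mouse embryos at E7.5 (embryonic day 7.5), staged from mid-streak to head-fold, with the extra-embryonic region cut away. Wild-type pool 1 held 53 embryos and wild-type pool 2 held 50, all ICR and of mixed sex. Foxa2 null pool 1 held 53 embryos and Foxa2 null pool 2 held 48, made by tetraploid complementation, in which Foxa2 null embryonic stem cells form the embryo and a wild-type tetraploid host forms the extra-embryonic tissues. The host's visceral endoderm, which is wild-type for Foxa2, stayed on the Foxa2 null embryos, so RNA from cells with a working Foxa2 gene was part of those pools. The labels of the U74Av2 mutant arrays name no strain and those of the MOE430v2 mutant arrays name ICR, so the strain of the stem cells is unsettled. Genotype and the origin of the embryos cannot be told apart in this design. By the study's staging, wild-type pool 2 held the fewest head-fold embryos. Each of the 4 extracts was put on 1 array of each platform, so n was 2 pools per genotype on both, and the second platform measured the same pools again. Because these were pools of embryos, fewer cells of a type and less RNA per cell cannot be told apart.

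Wnt, Bmp and Nodal are secreted signals that set up the head-to-tail and back-to-belly axes during gastrulation. Wnt and Bmp favour posterior and ventral fates in the epiblast, while the study places Nodal upstream of Foxa2 in the organizer. Tissues on the anterior and midline side secrete proteins that bind these ligands, or their receptors, outside the cell and so lower the signal received there. The node, the mouse counterpart of the Spemann organizer, is known for the Bmp antagonists Chrd and Nog and, at its rim, for the Nodal antagonist Dand5. The anterior endoderm, both visceral and definitive, is known for Cer1, Dkk1, Sfrp5 and Lefty1. Lefty2 is known from nascent mesoderm. Frzb was placed in mesoderm too, where the study lists it as a cardiac marker, while Sfrp2 was assigned to no source. Foxa2, a forkhead transcription factor, is needed to form the node, the definitive endoderm and the midline mesoderm.

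Foxa2 itself, whose mutation defines the groups, had log2 signals on U74Av2 of 7.37 and 8.08 in wild-type against 6.39 and 6.55 in Foxa2 null pools. On MOE430v2 they were 9.61 and 10.17 against 8.96 and 9.06. The groups did not overlap on either platform, and the log2 ratio (Foxa2 null minus wild-type) was -1.25 on U74Av2 (standard error 0.26, adjusted p = 0.13) and -0.88 on MOE430v2 (standard error 0.21, adjusted p = 0.141). The remaining signal was measured in pools that contain the host's visceral endoderm, and whether the probes lie in the deleted part is not given in the sources used here. Adjusted p-values here are from limma with Benjamini-Hochberg adjustment over all probe sets tested, and "called" means an adjusted p under 0.05. The pools are labelled as epiblast, and derivatives of the epiblast were seen in their markers, such as Mixl1 at 8.77 to 9.79 on MOE430v2 in log2 signal. Visceral endoderm markers were also present in every pool, with Ttr at 13.89 to 14.12 and Afp at 12.88 to 13.41 on MOE430v2.

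Of the 10 genes, 7 had an entry in the RefSeq promoter table (assembly GRCm38.p6), which holds 250 bases before and 50 bases after each start site. Nog, Lefty1 and Lefty2 had none. The 250 bases before the start are shown for the genes with the largest decreases in log2 ratio on either platform and for the gene that held one of the motifs searched, each on its own coding strand, 5′ to 3′. Cer1 lies on the minus strand at chr4:82885152-82885401, Chrd on the plus strand at chr16:20732877-20733126, Dand5 on the minus strand at chr8:84822824-84823073 and Frzb on the minus strand at chr2:80447397-80447646. Capitals mark AGGTGT, a core recognised by T-box factors.
Cer1: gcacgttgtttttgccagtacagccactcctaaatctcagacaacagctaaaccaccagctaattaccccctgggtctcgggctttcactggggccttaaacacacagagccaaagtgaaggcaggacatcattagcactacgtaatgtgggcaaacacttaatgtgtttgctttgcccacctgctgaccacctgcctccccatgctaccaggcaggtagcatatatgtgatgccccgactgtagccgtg
Chrd: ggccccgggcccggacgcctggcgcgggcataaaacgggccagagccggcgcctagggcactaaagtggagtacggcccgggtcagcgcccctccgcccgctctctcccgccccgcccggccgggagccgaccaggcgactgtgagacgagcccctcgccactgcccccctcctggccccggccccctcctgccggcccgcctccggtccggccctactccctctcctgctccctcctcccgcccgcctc
Dand5: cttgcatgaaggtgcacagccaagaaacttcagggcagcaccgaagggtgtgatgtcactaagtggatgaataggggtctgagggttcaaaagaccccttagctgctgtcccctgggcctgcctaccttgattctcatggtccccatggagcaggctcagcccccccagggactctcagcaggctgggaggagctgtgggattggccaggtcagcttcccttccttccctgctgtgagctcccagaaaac
Frzb: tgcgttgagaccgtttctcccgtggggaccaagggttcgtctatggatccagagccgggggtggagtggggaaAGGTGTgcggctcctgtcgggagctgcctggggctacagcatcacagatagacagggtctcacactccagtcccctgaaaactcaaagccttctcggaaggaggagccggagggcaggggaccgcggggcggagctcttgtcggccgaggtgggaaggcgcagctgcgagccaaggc

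Windows of 300 bases were searched on both strands for TGTTTAC and TATTTAC, which are cores recognised by forkhead factors, and for AGGTGT. With 1 match in all, no matches overlapped. Neither of these forkhead cores occurred in any of the 7 windows, and over all 32851 promoters of the table they occurred in 3.65% and 3.04%. Other forms of the core were not searched, such as TGTTTGC, which the printed Cer1 stretch holds unmarked. In a longer region upstream of Cer1 the study reports predicted Foxa2 and T motifs. AGGTGT occurred in 1 of the 7 windows, that of Frzb, at position -177 from the start, and in 13.7% of all promoters. The GC content of the window was 51.7% for Cer1, 78.3% for Chrd, 56.3% for Dand5 and 64.7% for Frzb, against a median of 52.7% over all promoters. These are matches of letters in a short window and say nothing of binding.

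Cer1 was the antagonist gene that fell past the threshold. Cer1 binds Nodal, Bmp and Wnt proteins and is made by the anterior endoderm. On U74Av2 its log2 signal was 7.76 and 8.24 in wild-type against 6.03 and 6.34 in Foxa2 null pools. Both Foxa2 null pools lay below both wild-type pools, with a gap larger than the spread within either genotype. The log2 ratio was -1.82 (standard error 0.23, 95% interval -2.35 to -1.29, adjusted p = 0.0313), a 3.52-fold lower signal. On MOE430v2, 2 probe sets measured Cer1. The brighter one had log2 signals of 10.04 and 10.89 against 8.63 and 9.33, a ratio of -1.49 (standard error 0.30, adjusted p = 0.0824). The other had 9.33 and 10.51 against 7.72 and 8.36, a ratio of -1.88 (standard error 0.37, adjusted p = 0.0741). Again no Foxa2 null pool reached a wild-type pool, and the ratios did not pass the threshold on this platform. When the values of an extract on both platforms were averaged, Cer1 fell by 1.65 on the log2 scale (standard error 0.23, adjusted p = 0.011), and 0.152% of the 5933 genes measured on both had a ratio that low or lower. The call on U74Av2 was lost without the filter on low signals (adjusted p = 0.0923) and without limma's intensity trend (adjusted p = 0.25), with the same ratio.

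**Figure D1:**
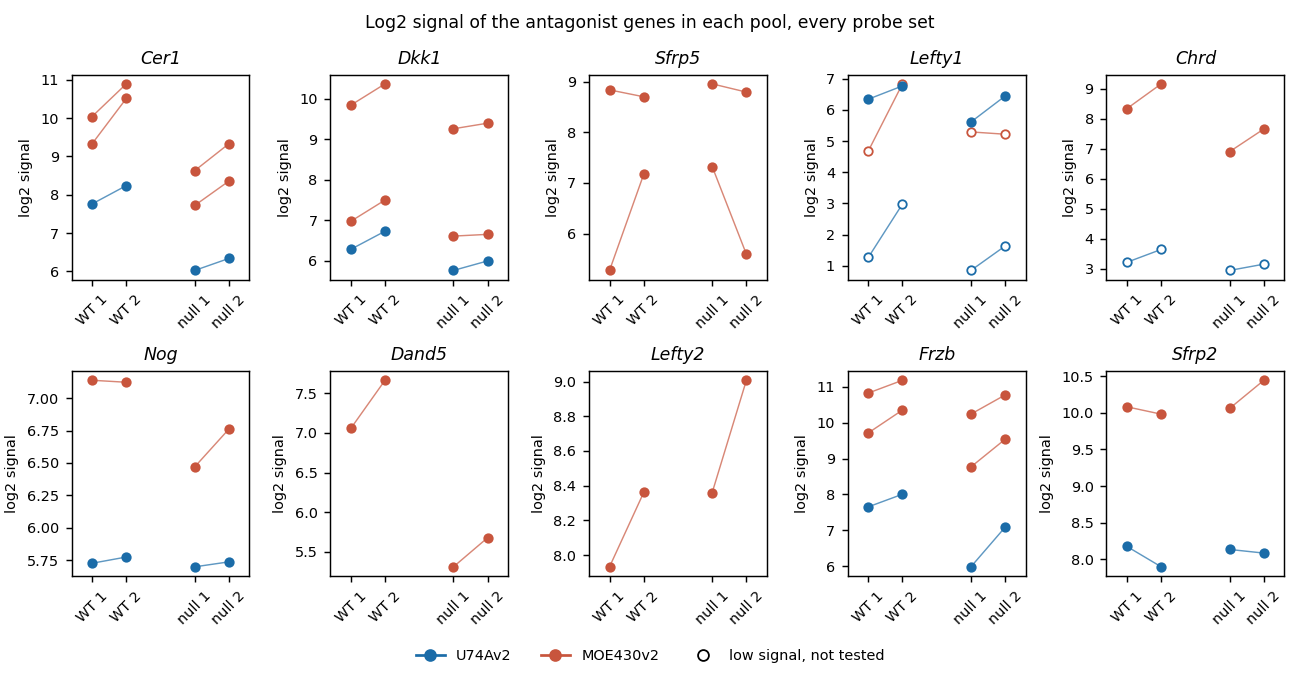
Log2 signal (vertical axis, arbitrary MAS5 units) of each antagonist gene in wild-type pools 1 and 2 and Foxa2 null pools 1 and 2, with 1 line per probe set and genotype, blue for U74Av2 and red for MOE430v2; each panel has its own scale and open points are probe sets with too low a signal to be tested. All 3 Cer1 lines, the MOE430v2 lines of Chrd and Dand5 and every Dkk1 and Frzb line lie lower in the Foxa2 null pools, while Sfrp2, Lefty2 and the brighter Sfrp5 probe set do not.

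The antagonist genes were chosen with earlier results of these data known, and the study reported Cer1, Chrd and Frzb as lower on these arrays. Their counts and median, set beside those of all probe sets, are therefore no independent result. Over the tested probe sets of the antagonist genes, 1 of 6 was called lower on U74Av2, where 0.173% of all 8695 tested probe sets were. On MOE430v2, 0 of 13 were called lower by limma, where 0.244% of 31526 were. At an unadjusted p under 0.05, 3 of 6 were lower on U74Av2, against 5.01% of all probe sets, and 7 of 13 on MOE430v2, against 6.07%. Those 7 probe sets were both of Cer1, both of Frzb, and 1 each of Chrd, Dand5 and Dkk1. In the fit on both platforms 1 of 5 genes was called lower, against 1.06% of all genes. No member was called higher on either platform, against 0.104% of probe sets on U74Av2 and 0.19% on MOE430v2, and none was higher at an unadjusted p under 0.05 on either. Both Foxa2 null pools lay below both wild-type pools, that is in all 4 comparisons, for 3 of 6 probe sets on U74Av2 (21.4% of all tested) and for 9 of 13 on MOE430v2 (21.8% of all tested). No member lay above in all 4 comparisons, where 18.6% of U74Av2 and 21.5% of MOE430v2 probe sets did. The median log2 ratio of the members was -0.58 on U74Av2 and -0.61 on MOE430v2, beside medians of -0.02 and 0.00 over all tested probe sets.

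Among the node antagonists, Dand5 and Chrd had ratios on MOE430v2 of a size like that of Cer1, and Nog had a smaller one. Dand5, also called Cerl2, binds Nodal and is made by cells at the rim of the node. Its log2 signals were 7.06 and 7.67 in wild-type against 5.31 and 5.68 in Foxa2 null pools, with no overlap. The ratio was -1.87 (standard error 0.54, 95% interval -3.08 to -0.66, adjusted p = 0.208), a 3.65-fold difference between the means that did not pass the threshold. The signal was low, and with an offset of 100 added before log2 the ratio was -0.93 (adjusted p = 0.17). Dand5 lies on chromosome 8, where the median ratio over 734 genes on this platform was 0.35, so the ratio of Dand5 was opposite in sign to that of its chromosome. With the lowest 50% of probe sets left out, Dand5 was no longer tested.

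Chrd (chordin) binds Bmp proteins and keeps them from their receptors. On MOE430v2 its log2 signals were 8.33 and 9.16 in wild-type against 6.90 and 7.65 in Foxa2 null pools. The groups did not overlap, and the ratio was -1.47 (standard error 0.37, 95% interval -2.30 to -0.63, adjusted p = 0.156). On U74Av2 the Chrd probe set was among the 30% with the lowest signal, at 3.22 and 3.64 against 2.94 and 3.15, and was not tested. Its ratio of -0.38 there had an adjusted p of 0.905 when no filter was used.

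Nog (noggin), the other Bmp antagonist of the node, had values that differed between the platforms. On U74Av2 the log2 signals were 5.73 and 5.77 against 5.70 and 5.74, a ratio of -0.03 (standard error 0.26, 95% interval -0.62 to 0.56, adjusted p = 0.985). On MOE430v2 they were 7.14 and 7.12 against 6.47 and 6.76, a ratio of -0.52 (standard error 0.42, 95% interval -1.46 to 0.43, adjusted p = 0.671), and -0.29 with the offset of 100. The Foxa2 null pools lay below both wild-type pools on MOE430v2, and both intervals hold 0. The averaged ratio was -0.27 (adjusted p = 0.707).

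Markers of the node and notochord moved with these ratios. Foxa2 itself is on this list, and the study reported Foxd4, Foxa1, Shh, Car3 and Cthrc1 as reduced on these same arrays. The direction of the list is therefore no independent result. T (Brachyury) is on that list and on the primitive streak and Wnt target lists, but no probe set was matched to it by that name. It is therefore missing from the values of these lists, and the study reported it as reduced on both platforms. All 6 genes of the node and notochord list tested on U74Av2 had ratios below 0 (median -1.19), and 7 of 8 on MOE430v2 did (median -1.44), with none listed at 0 in any pool. Over all genes, taking the brightest probe set of each, 3290 of 6410 and 7363 of 14180 had ratios below 0. The summed signal of the list was 573 and 717 in wild-type against 246 and 252 in Foxa2 null pools on U74Av2, and 5395 and 5473 against 2083 and 2057 on MOE430v2. The genes called lower were Foxd4, a forkhead factor, on U74Av2 (ratio -2.79, adjusted p = 0.016), and on MOE430v2 the carbonic anhydrase Car3 (-1.56, adjusted p = 0.014), the secreted protein Cthrc1 (-1.45, adjusted p = 0.018) and the forkhead factor Foxa1 (-1.54, adjusted p = 0.034). Foxj1, a factor for motile cilia, had a ratio of -1.12 on U74Av2 (adjusted p = 0.138) and of -0.57 with overlapping groups on MOE430v2, and Shh, the hedgehog ligand of the notochord, of -1.44 on MOE430v2 (adjusted p = 0.0509). The part of this list in the ratios of Chrd, Dand5 and Nog was not tested.

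Among the antagonists of the anterior endoderm, Cer1 stood beside genes with smaller ratios. Dkk1 blocks Wnt signalling by binding the co-receptors Lrp5 and Lrp6. On U74Av2 its log2 signals were 6.28 and 6.73 in wild-type against 5.76 and 6.0 in Foxa2 null pools, a ratio of -0.63 (standard error 0.26, 95% interval -1.22 to -0.04, adjusted p = 0.46). The brighter MOE430v2 probe set had 9.84 and 10.37 against 9.26 and 9.40, a ratio of -0.78 (standard error 0.20, adjusted p = 0.163). The dimmer one had 6.97 and 7.5 against 6.61 and 6.65, a ratio of -0.61 (standard error 0.42, adjusted p = 0.616). No pool overlapped between genotypes in any of the 3 probe sets, and none passed the threshold. Averaged over the platforms the ratio of Dkk1 was -0.70 (standard error 0.19, adjusted p = 0.105). It was smaller when wild-type pool 2 was left out (-0.46) and passed the threshold when Foxa2 null pool 2 was (-0.80, adjusted p = 0.0316).

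Sfrp5, a soluble protein with a Wnt-binding domain like that of the Frizzled receptors, was measured by 2 MOE430v2 probe sets. The brighter had log2 signals of 8.84 and 8.70 in wild-type against 8.95 and 8.79 in Foxa2 null pools, and the groups overlapped. Its ratio was 0.11 (standard error 0.20, 95% interval -0.36 to 0.57, adjusted p = 0.882), an interval that leaves out a decrease of the size seen for Cer1. The dimmer probe set scattered widely, at 5.27 and 7.17 against 7.32 and 5.59, and its ratio of 0.23 (standard error 0.81) changed sign without wild-type pool 1 (-0.71) or Foxa2 null pool 1 (-0.63).

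Lefty1 encodes a divergent TGF-beta family protein that blocks Nodal and its co-receptor. On U74Av2 its brighter probe set had log2 signals of 6.34 and 6.77 in wild-type against 5.61 and 6.45 in Foxa2 null pools. Foxa2 null pool 2 lay above wild-type pool 1, and the ratio was -0.53 (standard error 0.32, 95% interval -1.25 to 0.19, adjusted p = 0.648). Leaving out Foxa2 null pool 1 gave -0.11, and leaving out pool 2 of that genotype gave -0.95. The other U74Av2 probe set, of a kind that can match several members of a gene family, and the MOE430v2 probe set were below the filter on low signals. The MOE430v2 signals were 4.68 and 6.84 against 5.29 and 5.22, so the wild-type pools lay on either side of the Foxa2 null pools. Lefty1 and Lefty2 are close in sequence, and how far their probes share transcripts was not tested.

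Endoderm markers showed both directions. The study reported Foxa2, Foxa1, Sox17, Trh, Gprc5c, Cpm and Cldn4 of the definitive endoderm list as reduced on these same arrays. The direction of that list is therefore no independent result. Of the definitive endoderm list, 5 of 8 tested genes had ratios below 0 on U74Av2 (median -0.72) and 9 of 10 on MOE430v2 (median -0.70), with summed signals of 1238 and 1426 in wild-type against 866 and 883 in Foxa2 null pools on U74Av2 and of 9994 and 10444 against 6142 and 7431 on MOE430v2. The genes of it called lower were Foxa1, also on the node list, and the orphan receptor Gprc5c (-1.64, adjusted p = 0.016), both on MOE430v2. The study states that its mutants, which keep their visceral endoderm, appeared enriched for visceral endoderm markers. The direction of the visceral endoderm list is thus no independent result either. Of this list, 14 of 16 genes had ratios above 0 on U74Av2 (median 0.37) and 17 of 19 on MOE430v2 (median 0.25). None was called, where 3 of 6410 and 25 of 14180 genes were called higher. At an unadjusted p under 0.05, 5 and 8 were higher and 1 and 0 lower, against 329 and 889 higher and 319 and 993 lower over all genes. The lipid transfer protein gene Mttp, at 1.02 on U74Av2, had the highest ratio of the visceral endoderm list. Afp differed in sign between the platforms, at -0.48 on U74Av2 and 0.43 on MOE430v2 (adjusted p = 0.475 and 0.0954). Its groups did not overlap on either. The summed signal of the list was 9099 and 9139 in wild-type against 13410 and 9111 in Foxa2 null pools on U74Av2, and 86435 and 100720 against 120040 and 100460 on MOE430v2, so Foxa2 null pool 1 was the highest on both. No marker of these lists was at 0 in any pool. Cer1, Dkk1 and Lefty1 are made by visceral as well as definitive endoderm, and the parts of the 2 tissues in their ratios were not tested.

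The antagonists placed in mesoderm differed in sign. Frzb, a secreted protein that binds Wnt ligands, had log2 signals on U74Av2 of 7.65 and 8.01 in wild-type against 5.98 and 7.09 in Foxa2 null pools. The groups did not overlap, but the Foxa2 null pools lay 1.10 apart, and the ratio was -1.29 (standard error 0.34, 95% interval -2.06 to -0.53, adjusted p = 0.2). Without Foxa2 null pool 2 it was -1.85 and passed the threshold (adjusted p = 0.0144), and without Foxa2 null pool 1 it was -0.74 (adjusted p = 0.402). On MOE430v2 the brighter probe set had 10.83 and 11.18 against 10.24 and 10.77, a ratio of -0.50 (standard error 0.19, adjusted p = 0.356). The dimmer had 9.71 and 10.35 against 8.77 and 9.54, a ratio of -0.88 (standard error 0.29, adjusted p = 0.261). Without Foxa2 null pool 1 these ratios were -0.23 and -0.49, and without Foxa2 null pool 2 they were -0.76 and -1.27. Frzb was lower in all 4 comparisons in each of its 3 probe sets, and the averaged ratio was -0.90 (standard error 0.24, adjusted p = 0.0888).

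Lefty2, a Nodal antagonist of the nascent mesoderm, had the highest ratio of the 10 genes on either platform. Its log2 signals on MOE430v2 were 7.93 and 8.36 in wild-type against 8.36 and 9.01 in Foxa2 null pools. Foxa2 null pool 1 was level with wild-type pool 2 and Foxa2 null pool 2 was the highest. The ratio was 0.54 (standard error 0.29, 95% interval -0.12 to 1.19, adjusted p = 0.512), so no difference passed the threshold. Without Foxa2 null pool 2 the ratio was 0.21, and without Foxa2 null pool 1 it was 0.86. Sfrp2, a Wnt-binding protein assigned to no source, had log2 signals of 8.17 and 7.89 against 8.13 and 8.08 on U74Av2 and of 10.08 and 9.98 against 10.06 and 10.45 on MOE430v2. The groups overlapped on both, with ratios of 0.07 (95% interval -0.32 to 0.47) and 0.22 (95% interval -0.16 to 0.60), and the sign on U74Av2 turned without wild-type pool 2 (-0.065).

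**Figure D2:**
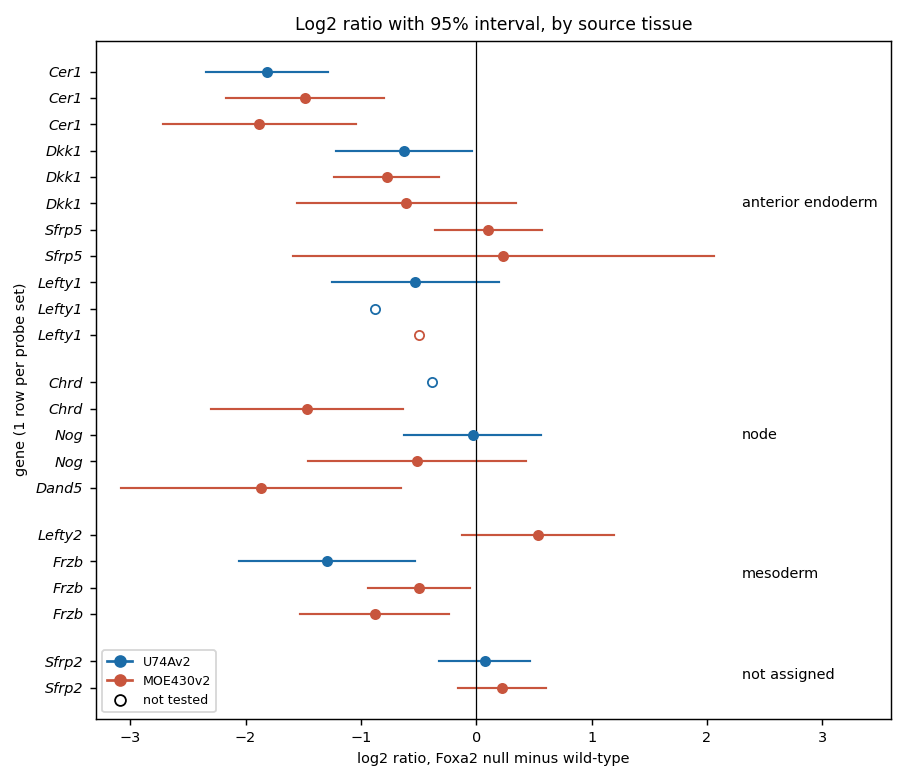
Log2 ratio, Foxa2 null minus wild-type (horizontal axis), of each probe set of the antagonist genes, ordered by source tissue, with bars for the 95% interval of the limma fit and open points for probe sets not tested. The intervals of Cer1, Chrd on MOE430v2, Dand5 and Frzb lie below 0, those of Dkk1 do in 2 of its 3 probe sets, and those of Sfrp5, Lefty1, Nog, Lefty2 and Sfrp2 hold 0; intervals are not adjusted for the number of probe sets.

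By source tissue, 1 probe set per gene and the brightest where there were several, the median log2 ratio on MOE430v2 was -1.47 over the 3 node genes, -0.78 over 3 anterior endoderm genes and 0.02 over the 2 mesoderm genes. On U74Av2 it was -0.63 over 3 anterior endoderm genes, and 1 gene each was tested for the node (Nog, -0.03) and the mesoderm (Frzb, -1.29). The anterior endoderm genes were Cer1, Dkk1 and Sfrp5 on MOE430v2 but Cer1, Dkk1 and Lefty1 on U74Av2. Both of their medians are the value of Dkk1. By target, the genes against Bmp alone had ratios of -1.47 (Chrd) and -0.52 (Nog) on MOE430v2. Those against Nodal alone had -1.87 (Dand5) and 0.54 (Lefty2), and those against Wnt alone had a median of -0.20 over 4 genes on MOE430v2 and of -0.63 over 3 on U74Av2. Groups of 1 to 4 genes give no test of a tissue or a pathway.

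The antagonist genes also differed between pools of the same genotype. Wild-type pool 2 was above wild-type pool 1 in 5 of 6 tested probe sets on U74Av2 and in 10 of 13 on MOE430v2, with median differences in log2 signal of 0.39 and 0.53. Over all tested probe sets 50.7% and 50.4% were higher in wild-type pool 2, with medians of 0.01 and 0.00. Foxa2 null pool 2 was above Foxa2 null pool 1 in 5 of 6 and 11 of 13, with medians of 0.27 and 0.38, where 54.7% and 50.2% of all probe sets were. Cer1 differed by 0.48 between the wild-type pools and by 0.31 between the Foxa2 null pools on U74Av2, and Chrd by 0.82 and 0.75 on MOE430v2. In both genes each genotype's lower pool was thus well apart from its higher pool, while every Foxa2 null pool stayed below every wild-type pool. The part of embryo stage in these differences was not tested.

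**Figure D3:**
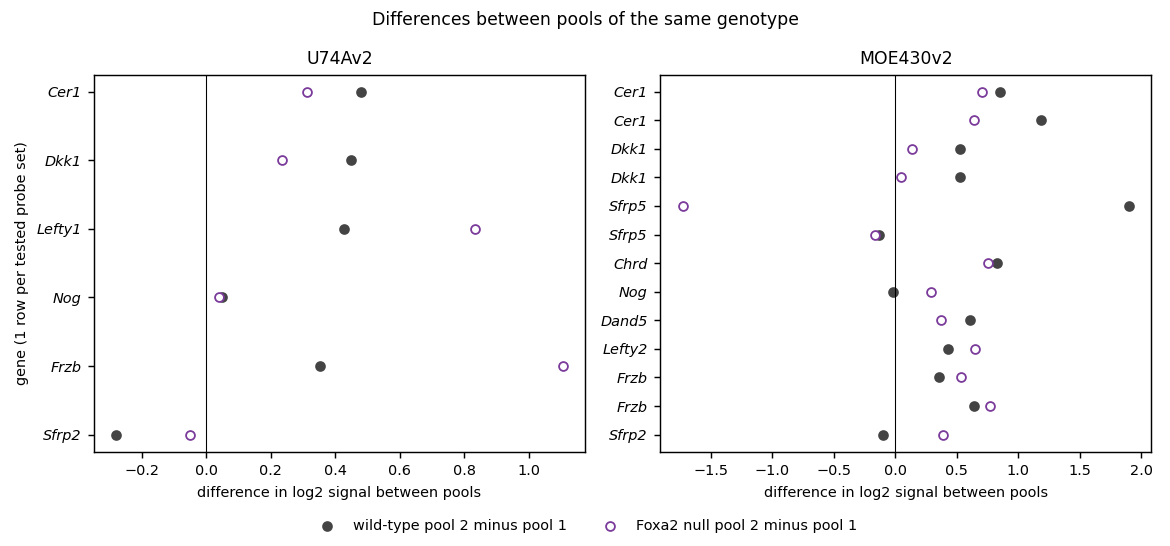
Difference in log2 signal between pool 2 and pool 1 (horizontal axis) for each tested probe set of the antagonist genes, filled points for the wild-type and open points for the Foxa2 null pools. Most points lie right of 0 for both genotypes (5 of 6 on U74Av2, 10 and 11 of 13 on MOE430v2), and the dimmer Sfrp5 probe set lies far to either side.

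A further 19 secreted antagonists of the same pathways were listed, of which 8 were tested on U74Av2 and 13 on MOE430v2. Of all genes, taking the brightest probe set of each, 0.172% were called lower on U74Av2 and 0.282% on MOE430v2. Of the other antagonists, 0 were called on U74Av2 by limma (0 also at an unadjusted p under 0.05) and 1 on MOE430v2. That gene was Fstl1, a follistatin-like secreted protein, with log2 signals of 11.75 and 11.48 in wild-type against 10.90 and 10.68 in Foxa2 null pools, and it fell by 0.83 (standard error 0.14, adjusted p = 0.0483). On U74Av2 its ratio was -0.36 (adjusted p = 0.54). Sost, a secreted antagonist that binds Wnt co-receptors, was lower in all 4 comparisons on MOE430v2 with a ratio of -1.30 (adjusted p = 0.491), at 6.54 and 6.73 against 5.81 and 4.85. The median ratio of these antagonists was -0.27 on U74Av2 and -0.32 on MOE430v2, beside -0.01 and -0.02 over all genes. On U74Av2, 6 of the 8 had ratios below 0 and 2 above, and on MOE430v2, 7 of the 13 were below and 6 above. On MOE430v2 the ratio was 0.74 for Chrdl2, with overlapping groups (adjusted p = 0.696). It was 0.51 for Chrdl1 and 0.45 for Sfrp4, without overlap (adjusted p = 0.661 and 0.431). Sfrp4 had 0.61 on U74Av2, where the groups overlapped (adjusted p = 0.784). Those without a large ratio included Fst, which binds activins (-0.24 and -0.32), Twsg1, a Bmp-binding partner of chordin (0.02 and 0.05), and Sfrp1 (-0.30 and 0.00). Sfrp1, like Dand5, lies on chromosome 8.

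Of the ligands, Nodal had ratios of 0.35 on U74Av2 (4.83 and 5.07 against 5.40 and 5.19) and 0.16 on MOE430v2, neither called (adjusted p = 0.802 and 0.847). Bmp4 had ratios of -0.29 and -0.02, and Bmp2 of -0.06 and -0.32. No gene of the Wnt, Bmp or Nodal ligand lists was called on either platform, out of 9, 5 and 3 tested on U74Av2 and 14, 6 and 3 on MOE430v2. At an unadjusted p under 0.05, 2 Wnt ligands were lower and 1 Nodal ligand higher on U74Av2, and 3 Wnt ligands and 1 Bmp ligand were lower and 2 Wnt ligands higher on MOE430v2. Over all genes, 319 of 6410 were lower and 329 higher at that p on U74Av2. On MOE430v2, 993 of 14180 were lower and 889 higher. Wnt8a, a ligand of the primitive streak, was lower in all 4 comparisons on both, with ratios of -0.79 and -0.79 (adjusted p = 0.196 and 0.147). Wnt3a, also of the streak, had ratios of -1.04 and -0.48. Gdf3, a Nodal-related ligand, was at 3.93 and 3.38 in wild-type against 4.88 and 5.76 in Foxa2 null pools on U74Av2, a ratio of 1.67 (adjusted p = 0.25). On MOE430v2 its signals were 7.13 and 7.76 against 7.17 and 7.60, which overlap, and the ratio was -0.06 (adjusted p = 0.971). Other ligands with at least a 2-fold difference between the means and no overlap were Inhba at -1.27 on U74Av2 and Inhbb at 1.07, Wnt1 at 1.35, Wnt2b at 1.5, Wnt4 at 1.65 and Wnt9b at -1.42 on MOE430v2 as log2 ratios, with adjusted p from 0.343 (Wnt1) to 0.594 (Inhba). On U74Av2 Wnt1 had a ratio of the opposite sign, -0.43 (adjusted p = 0.813), and the untested low signals of Inhbb, Wnt2b and Wnt4 there gave ratios of -0.83, -3.06 and -0.21.

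Of the receptors and co-receptors, 1 was called, the Frizzled receptor Fzd5, at 10.64 and 10.33 in wild-type against 9.42 and 9.53 in Foxa2 null pools on MOE430v2. It fell by 1.01 (standard error 0.16, adjusted p = 0.0421). Tdgf1, the Nodal co-receptor also known as Cripto, had the highest ratio of the receptors on either platform. Its log2 signals were 2.35 and 4.52 against 4.80 and 5.69 on U74Av2 and 6.57 and 8.19 against 8.91 and 10.26 on MOE430v2. The groups did not overlap, but pool 2 was well above pool 1 in both genotypes, and the ratios of 1.81 and 2.21 did not pass the threshold (adjusted p = 0.437 and 0.147). Lrp5, a Wnt co-receptor bound by Dkk1, had a ratio of 1.45 on U74Av2 (4.34 and 4.53 against 6.17 and 5.60, adjusted p = 0.172), and the groups did not overlap. On MOE430v2 its groups overlapped, with a ratio of 0.21 (adjusted p = 0.856). Lgr5, a receptor for R-spondins, had a ratio of -1.09 on U74Av2 (adjusted p = 0.519) and -0.36 on MOE430v2, and Acvrl1, a type I receptor, of 1.29 on MOE430v2 (adjusted p = 0.428) and 0.26 on U74Av2. The median ratio of the 12 Wnt receptors tested on U74Av2 was -0.20, and that of the 18 on MOE430v2 was -0.20.

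Genes known to respond to the pathways were listed as targets. Of the Bmp targets, 9 of 11 on U74Av2 and 9 of 12 on MOE430v2 had ratios above 0, with medians of 0.20 and 0.27, and 0 were called by limma on either (2 and 3 were higher at an unadjusted p under 0.05, and 0 and 1 lower). Over all genes 3120 of 6410 and 6817 of 14180 had ratios above 0, and the unadjusted counts are those given for the ligands. Hand1, a transcription factor of lateral and extra-embryonic mesoderm, had a ratio of 0.78 on MOE430v2 (10.86 and 10.93 against 11.51 and 11.85, adjusted p = 0.0551) and of 0.47 on U74Av2. Msx2, a homeobox gene, had ratios of 0.74 and 0.48, and Id1 and Id3, inhibitors of helix-loop-helix factors, had 0.14 and 0.08 on U74Av2 and 0.03 and -0.08 on MOE430v2. Id4 was lower in all 4 comparisons on both platforms, with ratios of -0.42 and -0.52 (adjusted p = 0.694 and 0.389). Gata4, which is also on the visceral endoderm list, had ratios of 0.27 and 0.30. The part of visceral endoderm in the ratios of the Bmp targets was not tested. Of the Wnt targets, 5 of 7 and 9 of 12 had ratios below 0, with medians of -0.13 and -0.58. Cdx1, a homeobox gene of the posterior body, was the one called, with log2 signals of 10.94 and 10.65 in wild-type against 9.12 and 8.30 in Foxa2 null pools on MOE430v2. It fell by 2.08 (standard error 0.26, adjusted p = 0.0151), and its ratio on U74Av2 was -1.51 (adjusted p = 0.13). Its relative Cdx4 had a ratio of -1.28 on MOE430v2 (adjusted p = 0.248). The Nodal targets had medians of -0.02 over 6 genes and -0.23 over 8, and none was called. Among them Eomes, a T-box factor of the streak, was at 4.44 and 6.27 against 6.74 and 7.82 on U74Av2, a ratio of 1.92 (adjusted p = 0.251), and at 8.52 and 9.87 against 9.998 and 11.06 on MOE430v2, a ratio of 1.34 (adjusted p = 0.259).

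**Figure D4:**
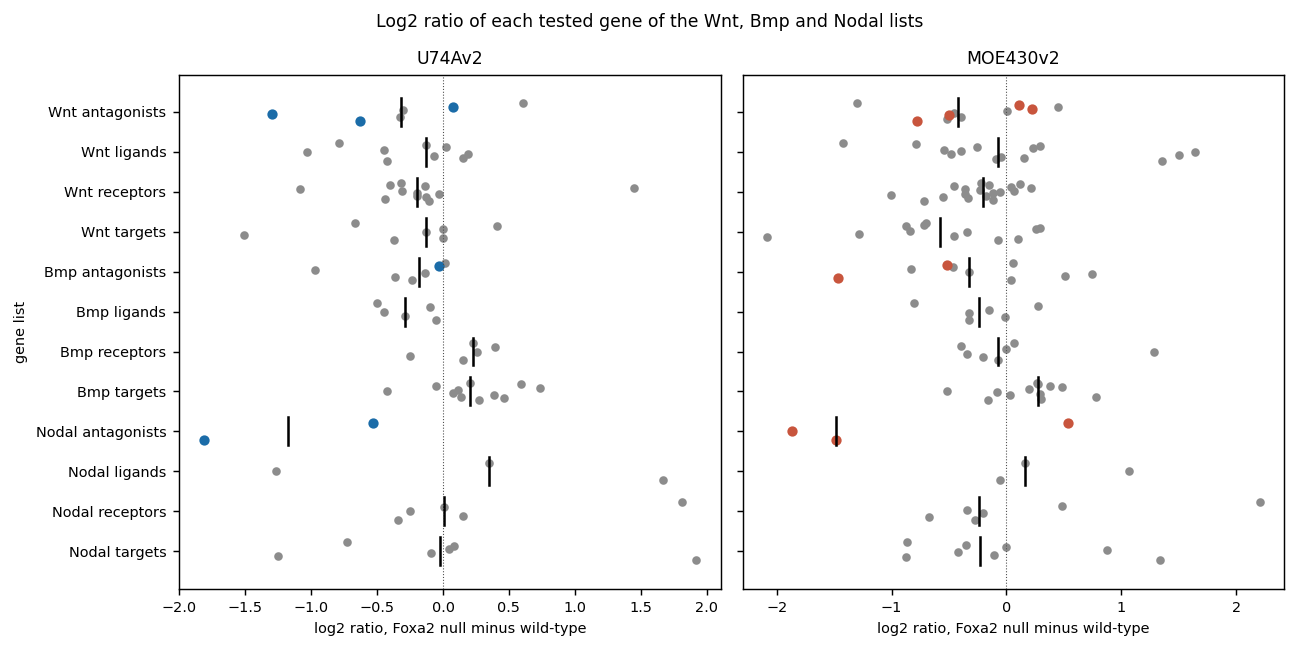
Log2 ratio, Foxa2 null minus wild-type (horizontal axis), of each tested gene of the Wnt, Bmp and Nodal lists on each platform, 1 point per gene, coloured where the gene is one of the 10 antagonists described and grey otherwise, with the list median as a vertical bar. The antagonist medians lie left of 0 on both platforms and the Bmp target medians lie right of 0 (0.20 and 0.27).

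Other tissues that the antagonists act on were described by marker lists. Of the anterior neuroectoderm list, 4 of 5 genes on U74Av2 and 4 of 6 on MOE430v2 had ratios below 0 (medians -0.46 and -0.53), and the homeobox gene Hesx1 was called lower on MOE430v2 (9.67 and 9.59 against 8.37 and 7.58, ratio -1.66, adjusted p = 0.0457). Six3, a homeobox gene of the forebrain, had a ratio of -1.17 on U74Av2 (adjusted p = 0.221), and Sox1, of the neural plate, of -2.20 on MOE430v2 (adjusted p = 0.43), where Foxa2 null pool 2 was far below the other pools. On U74Av2 the ratio of Sox1 had the opposite sign, 0.23 (adjusted p = 0.865). The primitive streak list had medians of -0.24 over 8 genes and 0.06 over 8, and the cardiac mesoderm list of -0.72 over 7 and 0.06 over 10, with 0 called on either by limma (3 and 3 genes of each streak list and 3 and 4 of each cardiac list were lower at an unadjusted p under 0.05, and 2 in each were higher). The unadjusted counts over all genes are those given for the ligands. The heart muscle genes Actc1 (-1.20 and -1.21, adjusted p = 0.0534 and 0.08), Myl7 (-1.10 on U74Av2, adjusted p = 0.101) and Tnnt2 (-1.33 on MOE430v2, adjusted p = 0.326) had negative ratios, and Hand2, a factor of heart precursors, had a ratio of 1.04 on U74Av2 (adjusted p = 0.463). Hand2 and Sox1 lie on chromosome 8, where the median ratio was 0.32 over 344 genes on U74Av2 and 0.35 over 734 on MOE430v2. The part of the chromosome in their ratios was not tested.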

How the data were processed

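Total RNA of 2 wild-type and 2 Foxa2 null pools was measured on 8 arrays. The authors deposited linear MAS5 signals, 1 intensity for each probe set, which they had scaled per array. The mean after trimming 2% at each end was 149 on the U74Av2 arrays and 498 on the MOE430v2 arrays, not the target that the methods name for U74Av2, and the MOE430v2 values were not yet loess-normalized. A different target shifts all log2 values of an array alike and no ratio. Control probe sets were left out, values were taken to log2 (floor 0.1, used for 4 zeros on U74Av2), and MOE430v2 arrays were normalized by cyclic loess. Probe sets whose mean log2 signal was among the lowest 30% were not tested. Foxa2 null was compared with wild-type, two-sided, by limma 3.58.1 (lmFit, eBayes with an intensity trend) in R 4.3.3 with the data.table package (version 1.17.8), with 2 pools per genotype and no block. For genes on both platforms the brightest probe sets were centred and averaged per extract. An exact permutation test of 2 against 2 pools cannot give a p under 0.333. P-values and standard errors rest on the spread between pools, which limma's trend draws towards that of probe sets of similar signal. For Nog on U74Av2 the standard deviation was 0.034 over wild-type and 0.027 over Foxa2 null pools, while the standard error was 0.26. The p-values are therefore no measure of a gene's own spread alone, and the number of arrays limits the precision.

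All probe sets of the antagonist genes are named. Of the other listed genes, those called on a platform, those with at least a 2-fold difference separated in all 4 comparisons, and markers that show tissue content were taken by rule, and other ligands, receptors, antagonists and targets named as examples were chosen after their values were seen. Probe sets that name several genes (396 and 932) were not named, and none held an antagonist gene. The members and lists were chosen with earlier results of these data known. The study reported Cer1, Chrd, Frzb, Hesx1, Six3, Actc1, Myl7 and Tnnt2 as lower on these arrays, among others. The direction of the lists that hold them is no independent result. By quantitative PCR on a further pool of each genotype, the study found Cer1, Hesx1, Tnnt2, Wnt3a and Wnt8a reduced, among others. For Actc1 and Foxa2 it states that quantitative PCR did not bear out the arrays. The script was tested on simulated data. Alternatives were loess, quantile and no loess, an offset, the filter, the trend, a block on the pool number and leaving out each pool. MAS5 present calls are not analysed here, and the sources used here give no build for the files.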

Additional observations from a re-analysis of the deposited data

How the results depend on the processing

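The direction and the side of the threshold were the same for 219 values of single probe sets and genes under the alternatives, 18 newly passed the threshold, 3 no longer did and 4 changed sign. On U74Av2 the 1 antagonist probe set called became 0 without the filter on low signals, 0 without the intensity trend, 2 with the replicate block, and 1 to 2 without each pool in turn (2 without Foxa2 null pool 2, with Frzb added). On MOE430v2 the 0 called became 2 with the lowest 50% left out (both of Cer1), 6 with the replicate block, and 0 to 2 without each pool (1 without wild-type pool 1, 2 without Foxa2 null pool 2, all of Cer1). On both platforms the 1 gene called became 2 with the lowest 50% left out, 0 without the trend, 3 with the replicate block and 1 to 3 without each pool (3 without Foxa2 null pool 2). The calls under the replicate block were Cer1, Chrd, Dkk1 and Frzb, but the labels give only shared numbers, and the pool differences of the genotypes correlated by 0.11 on U74Av2 and 0.09 on MOE430v2 across probe sets, so the numbers were not taken as pairs. The ratio of Nog on U74Av2 was 0.0084 under cyclic loess, that of Sfrp2 on U74Av2 was -0.065 without wild-type pool 2 (-0.065 to 0.21 without each pool), and that of the dimmer Sfrp5 probe set was -0.71 without wild-type pool 1 and -0.63 without Foxa2 null pool 1 (-0.71 to 1.18 without each pool). The causes were not tested. With 1 pool left in a genotype, that pool is assumed to vary like the others.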
